A study of Mus musculus with 11 samples.

Results

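The genes described here are those of the cytosolic aminoacyl-tRNA synthetases and of the translation initiation factors, chosen by gene symbol. They comprise 52 of the 12393 genes measured on the arrays, 18 synthetases and 34 initiation factors. On the arrays they are read by 117 of 20380 single-gene probe sets, 35 for the synthetases and 82 for the initiation factors. Genes for the eIF2 kinases, the eIF4E-binding proteins and the eIF4A helicases were left out of the choice and are given as context.

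Mouse JB6 skin cells were compared while attached to a dish (monolayer) and after growth as colonies in soft agar, which selects for growth without anchorage. In the first line, the parental clone 41-5A of JB6 was treated with basic fibroblast growth factor, bFGF, at 10 ng per ml in agar (3 monolayer and 3 colony arrays, called bFGF-JB6 here). The dose and time of bFGF in the monolayers are not given in the sources used here. In the second line, the tumour variant RT101, also a JB6 line, received no treatment (2 monolayer and 3 colony arrays). Colonies were harvested on day 7. The study asked whether the reversible growth in agar that bFGF induces and the irreversible growth of RT101 share changes in transcription. Each line stands for its type of growth alone, and line and bFGF treatment cannot be told apart between the lines. Whether arrays within a group had separate cultures behind them is not in the labels, so that the p-values reflect array-to-array spread that could be technical in part.

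Values are log2 signals on Affymetrix arrays, where a difference of 1 is a 2-fold change. Array medians lay between 5.82 and 5.95, and arrays of the same group correlated across genes at 0.989 to 0.998. The 3' to 5' difference of the Gapdh control was raised on bFGF-JB6 monolayer array 1 (0.19) and bFGF-JB6 colony array 3 (0.35), and lay between -0.08 and -0.01 on the others. Of 11 keratinocyte markers, 6 sat near the bottom of the signal range in each group, with list means of 3.96 to 4.11 per array, so the epidermal origin of the line was not visible in them. The mean over 8 fibroblast markers was 8.89 to 9.04 per array in bFGF-JB6 monolayers, 9.0 to 9.16 in bFGF-JB6 colonies, 8.56 to 8.59 in RT101 monolayers and 9.53 to 9.58 in RT101 colonies.

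An aminoacyl-tRNA synthetase joins an amino acid to its tRNA, which the ribosome then uses to read the code. Several synthetases sit together with scaffold proteins in a cytosolic multi-synthetase complex, while the others act outside it. Initiation factors bring the initiator tRNA (eIF2), the cap of the mRNA (eIF4) and the small ribosomal subunit (eIF3) together, and eIF2B recharges eIF2 with GTP. When amino acids run short or eIF2 is phosphorylated, the transcription factor ATF4 is translated and raises genes of amino acid supply, many cytosolic synthetase genes among them.

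RT101 monolayers had the highest mean of the 4 groups for 17 of the 18 synthetases, all but Qars, and for 17 of the 34 initiation factors. The share of all genes with their highest mean in RT101 monolayers was not counted. The mean signal over the synthetases was 9.25 to 9.37 on bFGF-JB6 monolayer arrays, 9.12 to 9.18 on bFGF-JB6 colony arrays, 10.15 to 10.19 on RT101 monolayer arrays and 9.20 to 9.26 on RT101 colony arrays. Over the initiation factors it was 9.51 to 9.56, 9.38 to 9.42, 9.73 to 9.77 and 9.51 to 9.55 in the same order. The synthetase means of RT101 monolayers stood apart from those of every other group, and those of RT101 colonies lay close to the bFGF-JB6 groups. From bFGF-JB6 monolayers to RT101 colonies the median difference was -0.17 over the synthetases and 0.01 over the initiation factors. In bulk RNA such levels do not tell fewer cells of a type from less RNA per cell.

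**Figure D1:**
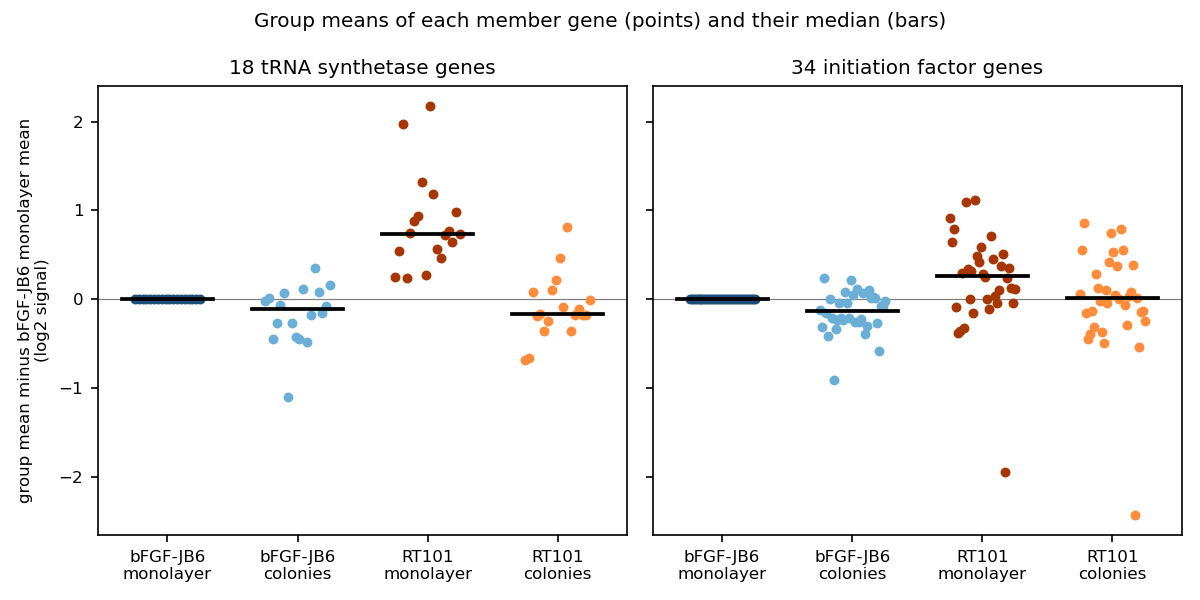
Mean log2 signal of each gene in each group minus its mean in bFGF-JB6 monolayers, for 18 synthetase genes (left) and 34 initiation factor genes (right); each point is a gene and each black bar the median over genes. All synthetase points of the RT101 monolayer lie above 0, with a median of 0.74, against 0.27 over the initiation factors.

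Promoter sequence is shown for the synthetases because their genes moved together in RT101. RefSeq windows of GRCm38.p6, from 250 bases before to 50 bases after the start site, were given for 38 of the 52 genes, 11 synthetases and 27 initiation factors. A composite element bound by ATF4 with C/EBP proteins was searched as TGATGNAA (reverse complement TTNCATCA) on both strands. It was found in 5 of the 11 synthetase genes with a window and in 1 of the 27 initiation factor genes, Eif2s3x, against 3.97% of all 32851 windows and 4.13% of 17491 protein-coding genes. The 5 synthetase windows follow, 5' to 3' on the strand of the gene, with the element in capitals. They are Aars at chr8:111033592-111033891 (+), Gars at chr6:55037751-55038050 (+), Iars at chr13:49681880-49682179 (+), Tars at chr15:11399609-11399908 (-) and Yars at chr4:129189653-129189952 (+).
Aars: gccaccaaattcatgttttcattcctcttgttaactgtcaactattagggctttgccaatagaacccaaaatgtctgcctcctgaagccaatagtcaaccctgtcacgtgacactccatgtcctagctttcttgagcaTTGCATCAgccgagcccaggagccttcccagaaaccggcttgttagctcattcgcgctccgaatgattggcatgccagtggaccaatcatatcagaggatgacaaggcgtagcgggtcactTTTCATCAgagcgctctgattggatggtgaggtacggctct
Gars: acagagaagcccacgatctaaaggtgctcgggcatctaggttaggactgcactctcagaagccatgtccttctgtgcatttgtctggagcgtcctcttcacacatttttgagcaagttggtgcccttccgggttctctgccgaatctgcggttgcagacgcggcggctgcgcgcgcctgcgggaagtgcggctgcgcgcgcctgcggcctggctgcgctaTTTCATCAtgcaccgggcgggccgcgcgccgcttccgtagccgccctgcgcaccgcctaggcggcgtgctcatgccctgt
Iars: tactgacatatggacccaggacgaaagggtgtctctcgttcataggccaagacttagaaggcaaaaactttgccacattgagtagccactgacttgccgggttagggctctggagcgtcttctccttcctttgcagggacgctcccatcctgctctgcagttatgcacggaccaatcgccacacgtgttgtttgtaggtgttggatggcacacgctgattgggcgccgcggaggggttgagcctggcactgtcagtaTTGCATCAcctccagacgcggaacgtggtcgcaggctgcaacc
Tars: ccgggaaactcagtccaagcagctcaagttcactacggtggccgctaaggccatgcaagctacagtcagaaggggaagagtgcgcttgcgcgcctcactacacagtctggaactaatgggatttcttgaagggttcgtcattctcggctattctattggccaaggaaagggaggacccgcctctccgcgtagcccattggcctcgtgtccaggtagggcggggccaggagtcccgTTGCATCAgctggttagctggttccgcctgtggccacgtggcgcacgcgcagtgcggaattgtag
Yars: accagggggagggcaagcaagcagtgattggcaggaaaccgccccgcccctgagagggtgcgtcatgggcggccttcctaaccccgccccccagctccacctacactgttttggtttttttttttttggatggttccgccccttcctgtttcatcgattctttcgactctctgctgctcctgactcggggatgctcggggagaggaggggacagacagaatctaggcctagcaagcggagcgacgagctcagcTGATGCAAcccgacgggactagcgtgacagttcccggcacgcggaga

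Aars carried the element at 2 places, 112 bases before the start site and at base 10 after it. In Gars it lay 30 bases and in Tars 15 bases before the start site, and in Iars and Yars it began at bases 8 and 4 after it. The stricter form TTGCATCA (reverse complement TGATGCAA), which every TGATGNAA match with a C at the free base also is, occurred in Aars, Iars, Tars and Yars. It occurred in none of the 27 initiation factors, in 0.895% of all windows and in 1.01% of protein-coding genes. The E-box CACGTG, its own reverse complement, occurred in 4 of the 11 synthetases (Aars, Farsb, Iars and Tars) and 7 of the 27 initiation factors. It occurred in 7.15% of all windows and 8.91% of protein-coding genes. These matches describe letters in a short window and say nothing of binding. The genes with a TGATGNAA match changed in RT101 colonies by -1.24 (Gars), -1.21 (Iars), -0.92 (Aars), -0.88 (Tars) and -0.73 (Yars) on the log2 scale. Those with a window and no match covered a wider range, from -1.89 for Eprs through -0.91 for Farsb, -0.90 for Sars, -0.43 for Farsa and -0.06 for Kars to 0.25 for Qars.

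In RT101 colonies the synthetase genes fell almost as a group. Of 18 genes, 16 fell, 1 rose and 1 did not pass the test, while 15.4% of all 12393 genes fell and 17.0% rose in that comparison (limma, Benjamini-Hochberg adjusted p under 0.05). The median change over the synthetases was -0.92 against -0.01 over all genes, and 8 of them fell at least 2-fold. The 12 synthetases outside the multi-synthetase complex all fell, by 0.43 (Farsa) to 1.28 (Nars), and of the 6 in the complex 4 fell. Signals of the colony and monolayer arrays did not overlap for any of the 16, which adds little for genes already called with 2 and 3 arrays. The share of all genes without overlap was not counted. Of the 8 fibroblast markers 4 rose and none fell in the same comparison, Pdgfrb by 3.07, Col3a1 by 2.84, Pdgfra by 1.20 and Col1a1 by 0.69 on the log2 scale, and their part in the fall of the synthetases was not tested.

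**Figure D2:**
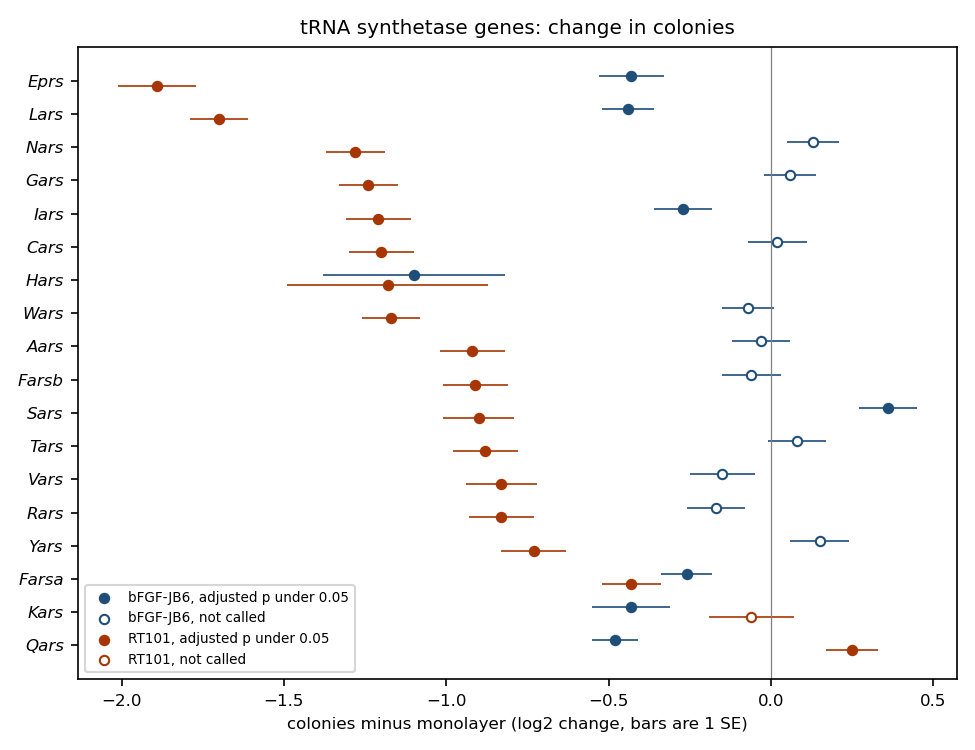
Log2 change from monolayer to colonies of the 18 synthetase genes in bFGF-JB6 (blue) and RT101 (brown); horizontal bars are 1 SE and filled points passed an adjusted p of 0.05. The RT101 points run from -1.89 for Eprs to 0.25 for Qars, and the bFGF-JB6 points from -1.10 for Hars to 0.36 for Sars.

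Eprs encodes the fused enzyme that charges both glutamate and proline tRNAs. Its log2 signals were 8.35, 8.23 and 8.10 in bFGF-JB6 monolayers, 7.61, 7.88 and 7.89 in bFGF-JB6 colonies, 10.27 and 10.12 in RT101 monolayers and 8.32, 8.20 and 8.41 in RT101 colonies. Both RT101 monolayer arrays were far above the other 9, and the colony arrays of bFGF-JB6 were the lowest, below their monolayer arrays without overlap. Eprs fell 3.69-fold in RT101 colonies (log2 change -1.89, SE 0.12, adjusted p = 4.23e-08) and 1.35-fold in bFGF-JB6 colonies (-0.43, SE 0.10, adjusted p = 0.00597). Its 3 probe sets read the RT101 fall alike, from -1.91 to -1.87, but 1 of them gave 0.03 in bFGF-JB6, where the mean of the 3 gave -0.28 (adjusted p = 0.0167).

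Lars, the leucyl-tRNA synthetase, which also takes part in leucine sensing, had a like pattern. Its signals were 8.83, 8.68 and 8.71 in bFGF-JB6 monolayers, 8.30, 8.20 and 8.39 in bFGF-JB6 colonies, 10.96 and 10.87 in RT101 monolayers and 9.25, 9.15 and 9.24 in RT101 colonies. The 4 groups did not overlap, and RT101 colonies stayed above both bFGF-JB6 groups. The fall was 3.25-fold in RT101 colonies (log2 change -1.70, SE 0.09, adjusted p = 1.45e-08) and 1.36-fold in bFGF-JB6 colonies (-0.44, SE 0.08, adjusted p = 0.00118).

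Nars, the asparaginyl-tRNA synthetase, lies outside the complex. On the bFGF-JB6 arrays it read 10.25, 10.37 and 10.42 in monolayers and 10.56, 10.45 and 10.40 in colonies, and on the RT101 arrays 11.50 and 11.58 in monolayers and 10.23, 10.24 and 10.32 in colonies. The bFGF-JB6 groups overlapped, and the RT101 monolayer arrays were the only ones above 11. Nars fell 2.42-fold in RT101 colonies (log2 change -1.28, SE 0.09, adjusted p = 1.78e-07), against 0.13 (SE 0.08, adjusted p = 0.292) in bFGF-JB6. The mean of its probe sets gave a rise of 0.21 (adjusted p = 0.0372) in bFGF-JB6.

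Gars, the glycyl-tRNA synthetase with the TTTCATCA match printed above, read 10.17, 9.98 and 10.12 in bFGF-JB6 monolayers and 10.16, 10.21 and 10.09 in colonies. In RT101 it read 10.95 and 10.98 in monolayers and 9.74, 9.69 and 9.75 in colonies. All 3 RT101 colony arrays lay below every bFGF-JB6 array. Gars fell 2.36-fold in RT101 colonies (log2 change -1.24, SE 0.09, adjusted p = 1.83e-07), with 0.06 (SE 0.08, adjusted p = 0.625) in bFGF-JB6.

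Cars, the cysteinyl-tRNA synthetase, showed the same order of groups. Its signals were 8.82, 8.77 and 8.89 in bFGF-JB6 monolayers, 8.92, 8.92 and 8.68 in bFGF-JB6 colonies, 9.30 and 9.41 in RT101 monolayers and 8.24, 8.18 and 8.06 in RT101 colonies. RT101 held both the highest and the lowest arrays, with the overlapping bFGF-JB6 groups between them. The RT101 fall was 2.29-fold (log2 change -1.20, SE 0.10, adjusted p = 8.68e-07). Its dimmer probe set gave -0.28 (adjusted p = 0.0503) and the mean of both -0.74 (adjusted p = 1.08e-05).

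Sars, the seryl-tRNA synthetase, was the only synthetase that rose in bFGF-JB6 colonies by its brightest probe set. It read 10.08, 9.91 and 10.21 in bFGF-JB6 monolayers, 10.48, 10.38 and 10.40 in bFGF-JB6 colonies, 10.68 and 10.91 in RT101 monolayers and 9.92, 9.91 and 9.85 in RT101 colonies. The colony arrays were above the monolayer arrays in bFGF-JB6 and below them in RT101, without overlap in either line. Sars rose 1.28-fold in bFGF-JB6 colonies (log2 change 0.36, SE 0.09, adjusted p = 0.0109) and fell 1.86-fold in RT101 colonies (-0.90, SE 0.11, adjusted p = 1.75e-05). Without bFGF-JB6 monolayer replicate 2 the rise was 0.28 with an adjusted p of 0.0571.

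Iars, the isoleucyl-tRNA synthetase of the complex, fell 2.32-fold in RT101 colonies (log2 change -1.21, SE 0.10, adjusted p = 7.12e-07). The tryptophanyl-tRNA synthetase Wars fell 2.25-fold (-1.17, SE 0.09, adjusted p = 2.75e-07). Class I and class II enzymes differ in the fold of the catalytic core. In RT101 colonies 7 of 8 class I genes fell with a median of -1.0, and 8 of 9 class II genes fell with a median of -0.91. Of all genes 15.4% fell in RT101 colonies. In the difference between the lines 7 of 8 and 6 of 9 were called negative, against 12.7% of all genes. No test compared the classes.

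Qars and Kars, the glutaminyl- and lysyl-tRNA synthetases of the complex, stood apart in RT101 and are named here after their values were seen. Qars read 9.79, 9.71 and 9.81 in bFGF-JB6 monolayers, 9.27, 9.27 and 9.33 in bFGF-JB6 colonies, 10.33 and 10.34 in RT101 monolayers and 10.64, 10.57 and 10.54 in RT101 colonies. Colonies were the lowest group in bFGF-JB6 and the highest in RT101. The RT101 rise was 1.19-fold (log2 change 0.25, SE 0.08, adjusted p = 0.0365), and it did not pass in 10 of the alternative settings, with 0.16 (adjusted p = 0.162) under median centring and 0.09 (adjusted p = 0.563) over the mean of its probe sets. Kars read 9.60 and 10.00 in RT101 monolayers and 9.90, 9.71 and 9.63 in RT101 colonies, which overlapped (log2 change -0.06, SE 0.13, adjusted p = 0.819).

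**Figure D3:**
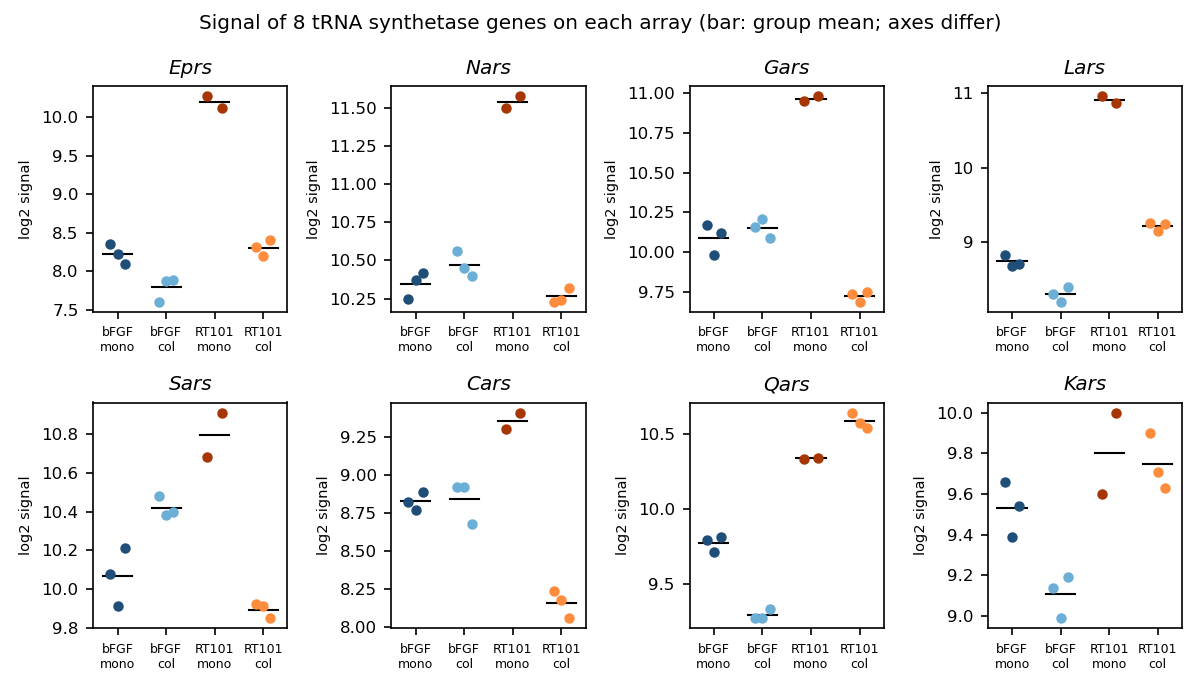
Log2 signal of 8 synthetase genes on each of the 11 arrays, by group; points are arrays, black lines are group means, and the vertical axes differ between genes and do not start at 0. In 6 genes the RT101 monolayer arrays are the highest, while Qars is highest in RT101 colonies and Kars overlaps between the RT101 groups.

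In bFGF-JB6 colonies the median change of the synthetases was smaller than in RT101. Of the 18, 7 fell and 1 rose, where 15.3% of all genes fell and 14.1% rose, and the median change was -0.11 against 0.03 over all genes. In the complex 5 of the 6 synthetases fell, with a median of -0.43, and Rars gave -0.17 (adjusted p = 0.194). Outside the complex 2 of 12 fell, Hars and Farsa, and Sars rose, with a median of -0.01. The scaffold genes fell too: Aimp2 by 0.53 on the log2 scale (adjusted p = 0.000444), Eef1e1 by 0.49 (adjusted p = 0.00259) and Aimp1 by 0.31 (adjusted p = 0.0078). The other synthetase genes of the complex, Dars and Mars, were not analysed here. No test compared the genes in and outside the complex, and the grouping was made with results of these arrays known.

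Next to Lars and Eprs, given above, Qars fell 1.39-fold in bFGF-JB6 colonies (log2 change -0.48, SE 0.07, adjusted p = 0.000259) and Kars 1.34-fold (-0.43, SE 0.12, adjusted p = 0.0141). Of the 8 calls, those of Eprs and Lars held in every alternative setting. The mean of its probe sets ended the call of Qars (-0.21, adjusted p = 0.103), and leaving out the 2 arrays of raised 3' signal ended those of Kars (-0.40, adjusted p = 0.052), Iars (-0.20, adjusted p = 0.171) and Farsa (-0.25, adjusted p = 0.0592), which took the count from 8 to 5.

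Hars, the histidyl-tRNA synthetase, had the widest spread within a group. It read 9.45, 9.46 and 9.43 in bFGF-JB6 monolayers, 7.83, 7.91 and 9.30 in bFGF-JB6 colonies, 10.53 and 10.24 in RT101 monolayers and 9.07, 9.20 and 9.34 in RT101 colonies. The bFGF-JB6 colony array at 9.30 was that of the highest Gapdh 3' signal, and it lay beside the monolayer arrays while the other 2 were far below. The change was -1.10 (SE 0.28, adjusted p = 0.00886), and without that array it was -1.58 (adjusted p = 3.50e-07). With a trended, robust variance the adjusted p was 0.0512. Hars also fell 2.27-fold in RT101 colonies (log2 change -1.18, SE 0.31, adjusted p = 0.0097), which did not pass without RT101 monolayer replicate 1 (-1.04, adjusted p = 0.0908). The dimmer probe set of Hars gave smaller falls, -0.63 (adjusted p = 0.000127) in bFGF-JB6 and -0.58 (adjusted p = 0.000392) in RT101. The mean of both gave -0.86 (adjusted p = 0.000577) and -0.88 (adjusted p = 0.000855). The part of RNA quality in these values was not tested.

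The change in colonies differed between the lines for most synthetases. Of the 18, 14 had a more negative change in RT101 than in bFGF-JB6 and 1, Qars, had a positive difference of 0.73 (SE 0.11, adjusted p = 0.000254). Over all genes 12.7% had a negative and 15.0% a positive difference. The median difference was -0.92 against -0.04 over all genes, and the most negative was that of Eprs (-1.45, SE 0.16, adjusted p = 1.01e-05), followed by Nars (-1.40, SE 0.12, adjusted p = 1.64e-06). The difference for Qars did not pass over the mean of its probe sets (0.31, adjusted p = 0.121). Farsa, Hars and Kars were the 3 that did not pass, with differences of -0.17, -0.08 and 0.37.

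The RT101 monolayer arrays enter the RT101 colony change, this difference and the comparison of the monolayers, so the 3 are not independent. Between monolayers, 16 of the 18 synthetases were higher in RT101 and none was lower, against 23.2% higher and 21.2% lower over all genes. Lars was 4.51-fold higher (log2 difference 2.17, SE 0.09, adjusted p = 4.60e-10), Eprs 3.92-fold (1.97, SE 0.12, adjusted p = 9.94e-09) and Iars 2.49-fold (1.32, SE 0.10, adjusted p = 1.38e-07). Aars (0.24, adjusted p = 0.0711) and Kars (0.27, adjusted p = 0.123) did not pass, though Aars passed in 7 and Kars in 3 alternative settings.

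Between the colonies of the lines the synthetases split. There 6 were higher in RT101 and 4 lower, where 22.7% of all genes were higher and 20.7% lower, and the median difference was -0.11. In the complex 5 of the 6 were higher, led by Qars (2.45-fold, log2 difference 1.30, SE 0.07, adjusted p = 8.11e-09) and Lars (1.89-fold, 0.92, SE 0.08, adjusted p = 7.66e-07). Outside it 4 of the 12 were lower: Cars (-0.68, SE 0.09, adjusted p = 2.97e-05), Aars (-0.65, SE 0.09, adjusted p = 4.04e-05), Sars (-0.53) and Gars (-0.43). Hars was higher (0.86, SE 0.28, adjusted p = 0.0236), with arrays that overlapped, and did not pass without bFGF-JB6 colony replicate 1 (0.60, adjusted p = 0.111). Eprs was higher by its brightest probe set (0.52, adjusted p = 0.000933) but lower by another (-0.30), and its direction is uncertain there. For Qars the mean of its probe sets gave 0.66 (adjusted p = 5.11e-05), and for Nars, not called by its brightest, that mean gave -0.28 (adjusted p = 0.00534).

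The colony changes of the initiation factors were smaller than those of the synthetases in RT101 by their medians and close to them in bFGF-JB6, and no test compared the classes. In RT101 colonies 11 of 34 fell, 2 rose and 21 did not pass, with a median of -0.11 against -0.92 over the synthetases. In bFGF-JB6 colonies 10 fell, 2 rose and 22 did not pass, with a median of -0.14 against -0.11. Eif3c was the only one that fell 2-fold in RT101, and none did so in bFGF-JB6. The shares of all genes that fell, 15.4% in RT101 and 15.3% in bFGF-JB6, and that rose, 17.0% and 14.1%, are the background of these counts. Leaving out either RT101 monolayer array, replicate 1 or replicate 2, lowered the RT101 count of 13 to 8, and leaving out bFGF-JB6 colony replicate 2 lowered the bFGF-JB6 count of 12 to 6. Fitting the bFGF-JB6 groups alone gave 5. Of the calls, 6 of 13 in RT101 and 4 of 12 in bFGF-JB6 held in every alternative.

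**Figure D4:**
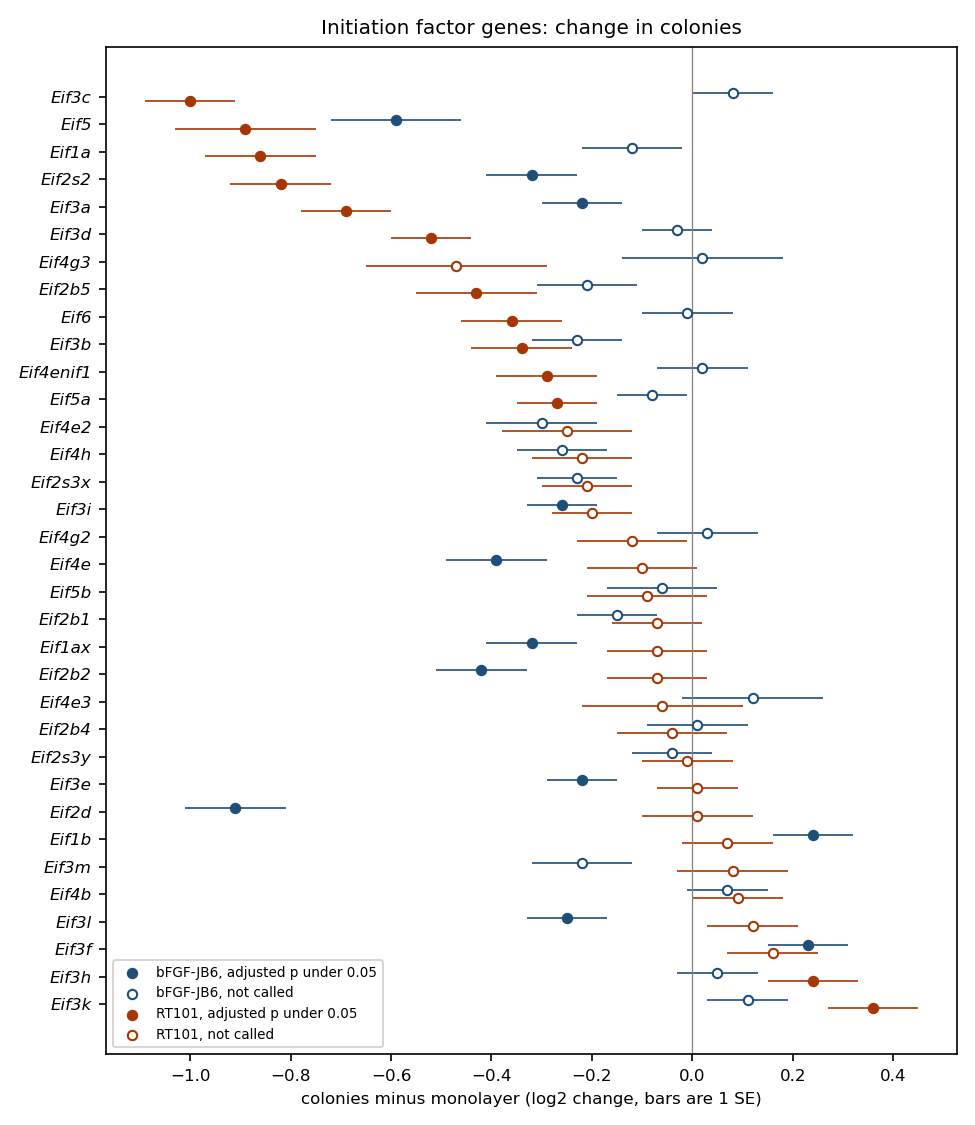
Log2 change from monolayer to colonies of the 34 initiation factor genes in bFGF-JB6 (blue) and RT101 (brown); horizontal bars are 1 SE and filled points passed an adjusted p of 0.05. Most points of both lines lie within 0.5 of 0, and Eif3c, Eif5, Eif1a and Eif2s2 are the lowest in RT101 and Eif2d in bFGF-JB6.

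Among the factors that prepare and place the initiator tRNA (eIF1, eIF2, eIF5 and eIF5B), 4 of 9 fell and 1 rose in bFGF-JB6 colonies. In RT101 colonies 3 of them fell and none rose. Of all genes 15.3% fell and 14.1% rose in bFGF-JB6 colonies, and 15.4% fell and 17.0% rose in RT101 colonies. The 1 rise, 11.1% of the 9, was not above the share of all genes. The 9 include Eif2s3y, which lay at the bottom of the signal range. Eif2s2, the beta subunit of eIF2, read 10.98, 11.03 and 11.07 in bFGF-JB6 monolayers, 10.58, 10.66 and 10.86 in bFGF-JB6 colonies, 12.12 and 12.13 in RT101 monolayers and 11.30, 11.31 and 11.32 in RT101 colonies. No groups overlapped, and colonies were lower in both lines. The fall was 1.76-fold in RT101 (log2 change -0.82, SE 0.10, adjusted p = 1.62e-05) and 1.25-fold in bFGF-JB6 (-0.32, SE 0.09, adjusted p = 0.0108), and the changes differed by -0.49 (SE 0.13, adjusted p = 0.0103).

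Eif1a, which encodes a form of eIF1A that helps the small subunit scan the mRNA, read 8.70, 8.95 and 8.97 in bFGF-JB6 monolayers, 8.85, 8.71 and 8.70 in bFGF-JB6 colonies, 9.67 and 9.91 in RT101 monolayers and 8.85, 8.93 and 9.01 in RT101 colonies. Its RT101 monolayer arrays were the highest, and the other 3 groups lay close together. Eif1a fell 1.81-fold in RT101 colonies (log2 change -0.86, SE 0.11, adjusted p = 4.15e-05). Eif1ax, a near copy, gave -0.32 (adjusted p = 0.0188) in bFGF-JB6 colonies by its brightest probe set, while a dimmer one gave 0.58, so that its direction is uncertain. Probe sets of such near copies may read both genes.

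Eif2d, a factor that can deliver the initiator tRNA without eIF2, moved in bFGF-JB6 alone by the test. It read 9.23, 9.11 and 9.19 in bFGF-JB6 monolayers, 8.21, 8.10 and 8.48 in bFGF-JB6 colonies, 8.84 and 8.87 in RT101 monolayers and 8.89, 8.94 and 8.76 in RT101 colonies. The bFGF-JB6 colony arrays were the lowest, and the RT101 groups overlapped. Eif2d fell 1.88-fold in bFGF-JB6 colonies (log2 change -0.91, SE 0.10, adjusted p = 1.22e-05) against 0.01 in RT101, and the changes differed by 0.92 (SE 0.15, adjusted p = 0.000391). The mean of its probe sets gave -0.60 (adjusted p = 0.000133) in bFGF-JB6 and a difference of 0.59 (adjusted p = 0.00341).

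Eif5, which helps eIF2 hydrolyse its GTP, is named for its size of change. In bFGF-JB6 it read 11.38, 11.43 and 11.42 in monolayers and 10.67, 10.60 and 11.21 in colonies, and in RT101 11.80 and 11.72 in monolayers and 10.95, 10.83 and 10.84 in colonies. As with Hars, the third bFGF-JB6 colony array lay closest to the monolayers. Eif5 fell 1.85-fold in RT101 colonies (log2 change -0.89, SE 0.14, adjusted p = 0.000287) and 1.5-fold in bFGF-JB6 colonies (-0.59, SE 0.13, adjusted p = 0.00344). Its other 3 probe sets gave bFGF-JB6 changes of -0.17 to 0.01, and the mean of all 4 gave -0.22 (adjusted p = 0.0207). The changes in the lines differed by -0.30 (adjusted p = 0.3) for its brightest probe set and by -0.64 (adjusted p = 0.000249) for that mean.

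Of 4 measured eIF2B subunit genes, Eif2b2 fell in bFGF-JB6 colonies (1.33-fold, log2 change -0.42, SE 0.09, adjusted p = 0.00209) and Eif2b5 in RT101 colonies (-0.43, adjusted p = 0.0098). The second call did not pass without RT101 monolayer replicate 2 (-0.35, adjusted p = 0.107). Eif2b1 and Eif2b4 passed in neither line. Of all genes 15.3% fell in bFGF-JB6 colonies and 15.4% in RT101 colonies, against 1 of these 4 in each line.

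Genes of the eIF3 scaffold, which holds the small subunit, changed in both directions. Of the 11 eIF3 genes 4 fell (Eif3c, Eif3a, Eif3d and Eif3b) and 2 rose (Eif3k and Eif3h) in RT101 colonies. In bFGF-JB6 colonies 4 fell and 1 rose. Of all genes 15.4% fell and 17.0% rose in RT101, and 15.3% fell and 14.1% rose in bFGF-JB6. The RT101 rises, 18.2% of the 11, were near the share of all genes. Eif3c read 11.19, 11.04 and 11.05 in bFGF-JB6 monolayers, 11.16, 11.29 and 11.07 in bFGF-JB6 colonies, 12.23 and 12.19 in RT101 monolayers and 11.20, 11.23 and 11.18 in RT101 colonies. The RT101 monolayer arrays alone were high, and the other 9 lay within the same narrow range. Eif3c fell 2.01-fold in RT101 colonies (SE 0.09 on the log2 scale, adjusted p = 1.80e-06), and all 4 of its probe sets gave falls, from -1.17 to -1.0.

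Eif3a, the largest subunit, read 10.53, 10.53 and 10.57 in bFGF-JB6 monolayers, 10.41, 10.27 and 10.29 in bFGF-JB6 colonies, 10.91 and 10.81 in RT101 monolayers and 10.15, 10.22 and 10.16 in RT101 colonies. Colonies were lower than monolayers in both lines, without overlap. The RT101 fall was 1.61-fold (log2 change -0.69, SE 0.09, adjusted p = 2.83e-05), and the bFGF-JB6 change of -0.22 (adjusted p = 0.0481) lost its call in most alternatives, with -0.16 (adjusted p = 0.118) under cyclic loess. Over the mean of its probe sets the bFGF-JB6 change was -0.44 (adjusted p = 0.000866). The dimmest probe set gave -1.12 there and the others -0.25 to -0.18. Eif3d, a subunit that can bind the cap, read 11.41, 11.32 and 11.39 in bFGF-JB6 monolayers, 11.29, 11.35 and 11.38 in bFGF-JB6 colonies, 11.86 and 11.88 in RT101 monolayers and 11.36, 11.34 and 11.32 in RT101 colonies. Its RT101 monolayer arrays stood above all others, and it fell 1.44-fold in RT101 colonies (log2 change -0.52, SE 0.08, adjusted p = 0.000203).

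The rises of Eif3k (0.36, SE 0.09, adjusted p = 0.00868) and Eif3h (0.24, SE 0.09, adjusted p = 0.0419) were smaller. Without RT101 monolayer replicate 1 Eif3k gave 0.29 (adjusted p = 0.103) and Eif3b, at -0.34 (adjusted p = 0.0203) with all arrays, gave -0.24 (adjusted p = 0.227). Eif3h gave 0.16 (adjusted p = 0.189) under median centring.

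Of the 8 genes with symbols that start with Eif4, grouped by symbol alone, 1 fell in the colonies of each line. It was Eif4e in bFGF-JB6, where 15.3% of all genes fell. In RT101, where 15.4% fell, it was Eif4enif1 (-0.29, adjusted p = 0.032), a call that did not hold in every alternative. Eif4e, the cap-binding protein, read 10.41, 10.68 and 10.68 in bFGF-JB6 monolayers, 10.34, 10.20 and 10.05 in bFGF-JB6 colonies, 10.58 and 10.67 in RT101 monolayers and 10.52, 10.51 and 10.55 in RT101 colonies. Its lowest arrays were those of bFGF-JB6 colonies, and the RT101 groups lay close without overlap. Eif4e fell 1.31-fold in bFGF-JB6 colonies (log2 change -0.39, SE 0.10, adjusted p = 0.00806), which did not pass over the mean of its probe sets (-0.19, adjusted p = 0.0832), and gave -0.10 (adjusted p = 0.582) in RT101. Eif4g1 and the eIF2 alpha subunit gene Eif2s1 were not analysed here.

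Eif6, which keeps the ribosomal subunits apart, read 9.58, 9.56 and 9.65 in bFGF-JB6 monolayers, 9.67, 9.56 and 9.52 in bFGF-JB6 colonies, 9.60 and 9.84 in RT101 monolayers and 9.42, 9.35 and 9.30 in RT101 colonies. The RT101 colony arrays were the lowest, and the other 3 groups overlapped. Eif6 fell 1.29-fold in RT101 colonies (log2 change -0.36, SE 0.10, adjusted p = 0.0104), which did not pass without RT101 monolayer replicate 2 (-0.24, adjusted p = 0.157). Eif5a, whose product helps ribosomes past difficult stretches, fell 1.21-fold (-0.27, SE 0.08, adjusted p = 0.0233), and lost its call without any 1 of the RT101 arrays, with an adjusted p of 0.121 without monolayer replicate 2.

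**Figure D5:**
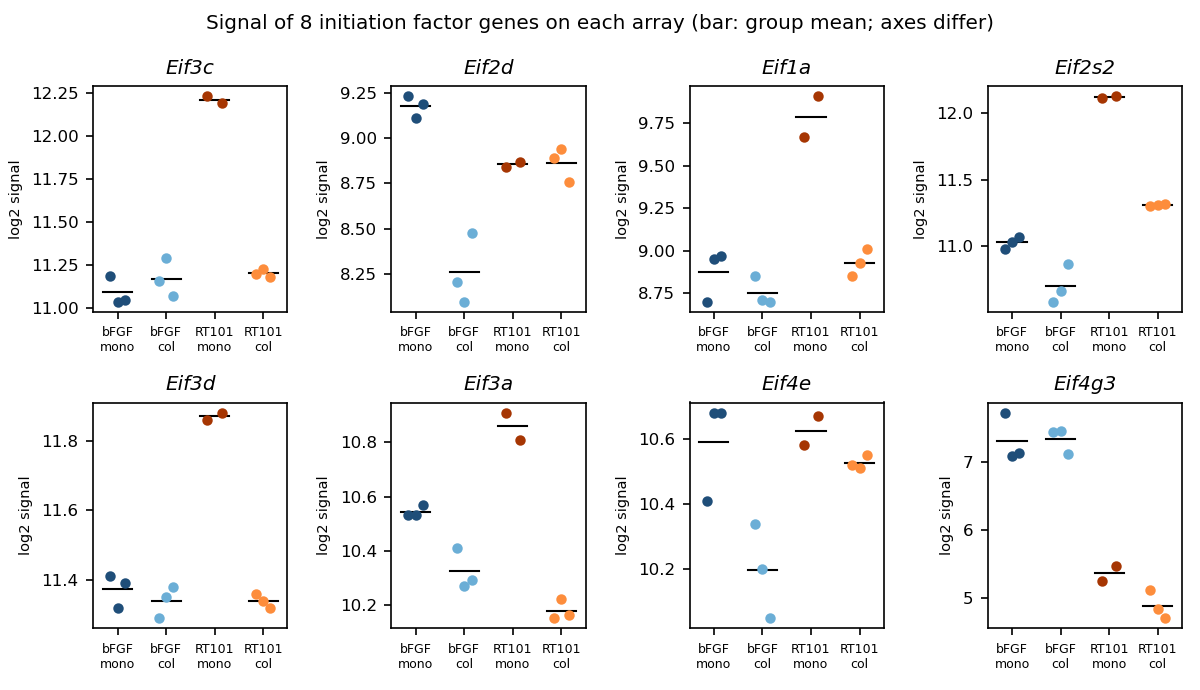
Log2 signal of 8 initiation factor genes on each of the 11 arrays, by group; points are arrays, black lines are group means, and the vertical axes differ between genes and do not start at 0. Eif3c, Eif1a, Eif2s2, Eif3d and Eif3a are highest on the RT101 monolayer arrays, Eif2d is lowest in bFGF-JB6 colonies, and Eif4g3 is low on all RT101 arrays.

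The colony changes of the initiation factors differed between the lines in 7 of 34 genes, with 5 negative and 2 positive differences (RT101 minus bFGF-JB6) and a median of -0.04, the same as over all genes. The 12.7% and 15.0% of all genes given above are the background of these counts. Next to Eif2d, the positive one was Eif3l (0.37, adjusted p = 0.0408), which did not pass in most alternatives. The negative differences of Eif3c (-1.08, SE 0.12, adjusted p = 1.92e-05), Eif1a (-0.73, SE 0.15, adjusted p = 0.00215), Eif2s2, Eif3d and Eif3a lay between -1.08 and -0.47. That of Eif3a did not pass over the mean of its probe sets (-0.28, adjusted p = 0.104).

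Between the monolayers of the lines 17 of 34 initiation factors were higher in RT101 and 4 lower, where 23.2% of all genes were higher and 21.2% lower. Between colonies 16 were higher and 3 lower, where the shares of all genes were 22.7% and 20.7%. Eif3c (2.17-fold, log2 difference 1.12, SE 0.09, adjusted p = 2.98e-07) and Eif2s2 (2.15-fold, 1.10, SE 0.10, adjusted p = 4.43e-07) led in monolayers. In colonies Eif3m, another eIF3 subunit, was 2.01-fold higher (log2 difference 1.01, SE 0.10, adjusted p = 1.04e-06), followed by Eif1ax (0.88, adjusted p = 3.18e-06, and 0.44 over the mean of its probe sets) and Eif3e (0.64, SE 0.07, adjusted p = 6.57e-06).

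Eif4g3, a scaffold that joins the cap-binding protein to the ribosome, went the other way. It read 7.72, 7.08 and 7.13 in bFGF-JB6 monolayers, 7.44, 7.45 and 7.12 in bFGF-JB6 colonies, 5.26 and 5.48 in RT101 monolayers and 5.12, 4.85 and 4.71 in RT101 colonies. All 5 RT101 arrays lay below all 6 bFGF-JB6 arrays. It was 3.85-fold lower in RT101 monolayers (log2 difference -1.94, SE 0.18, adjusted p = 9.73e-07) and 5.43-fold lower in RT101 colonies (-2.44, SE 0.16, adjusted p = 3.54e-08), and it gave 0.02 (adjusted p = 0.941) in bFGF-JB6 colonies. Its change of -0.47 in RT101 colonies did not pass (adjusted p = 0.0643), but passed in 9 alternative settings, with an adjusted p of 0.0201 when only the RT101 groups were fitted and 0.00773 without the 2 arrays of raised 3' signal. Of the eIF2B genes, Eif2b4 was lower in RT101 in both states (-0.36, adjusted p = 0.0194, and -0.41, adjusted p = 0.00461).

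Eif2s3y lay at the bottom of the signal range, with group means of 2.33 to 2.37, and passed the test in none of the 5 comparisons. Eif4e3, with group means of 3.98 to 4.09, lay just above the lower quartile of 3.94 and passed in none by its brightest probe set. Its other probe set gave a rise of 0.49 (adjusted p = 0.0146) in bFGF-JB6 colonies, and the mean of both gave 0.30 (adjusted p = 0.026).

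Genes that act with the synthetases gave further context. The background of the counts from here on is 15.4% of all genes falling and 17.0% rising in RT101 colonies. In bFGF-JB6 colonies it is 15.3% and 14.1%. Of 14 genes tied to ATF4 or to amino acid supply, all 14 fell in RT101 colonies, with a median of -1.42, and 7 rose and none fell in bFGF-JB6 colonies. Atf4 itself read 11.16, 11.10 and 11.14 in bFGF-JB6 monolayers, 12.11, 12.06 and 11.83 in bFGF-JB6 colonies, 12.31 and 12.36 in RT101 monolayers and 11.39, 11.29 and 11.30 in RT101 colonies. It was high in bFGF-JB6 colonies and RT101 monolayers, with no overlap between colonies and monolayers in either line (log2 changes 0.87, adjusted p = 5.82e-06, and -1.01, adjusted p = 2.77e-06). Over the mean of its probe sets Atf4 gave 0.46 (adjusted p = 0.000366) in bFGF-JB6 and -0.78 (adjusted p = 7.67e-06) in RT101. Asns, asparagine synthetase, rose by 0.58 (adjusted p = 5.07e-05) and fell by 1.40 on the log2 scale (adjusted p = 3.05e-08), and Ddit3, a stress transcription factor, gave 0.27 (adjusted p = 0.0545) and -1.63 (adjusted p = 1.01e-07) in the same order. The synthetases had a median change of -0.11 in bFGF-JB6 colonies and -0.92 in RT101 colonies. The part of ATF4 in these changes was not tested.

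Of 17 listed mitochondrial synthetase genes 8 were measured, of which 3 fell and none rose in RT101 colonies and 2 fell and 2 rose in bFGF-JB6 colonies, with medians of -0.05 and -0.08. Ears2 (-0.47, adjusted p = 0.00482), Tars2 (-0.46, adjusted p = 0.00541) and Rars2 (-0.41, adjusted p = 0.00625) were those that fell in RT101, and Ears2 gave -0.25 (adjusted p = 0.0526) over the mean of its probe sets. Of 8 measured genes of elongation, termination and recycling, 3 fell in RT101 and 4 in bFGF-JB6. Etf1, a release factor, fell by 0.65 in RT101 (adjusted p = 2.66e-05), and Abce1 and Gspt1, of ribosome recycling and termination, fell in both lines.

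Among 12 measured genes that control initiation, 3 rose and 4 fell in RT101 colonies, and 3 rose and 3 fell in bFGF-JB6 colonies. Eif4ebp1, an inhibitor of the cap-binding protein, read 10.93 and 11.05 in RT101 monolayers and 9.67, 9.53 and 9.54 in RT101 colonies (log2 change -1.41, adjusted p = 2.06e-07), with -0.13 (adjusted p = 0.353) in bFGF-JB6. Ppp1r15a, which directs the dephosphorylation of eIF2, fell by 2.43 in RT101 (adjusted p = 1.71e-09) and rose by 0.75 in bFGF-JB6 (adjusted p = 4.95e-05). The eIF2 kinase genes Eif2ak3 and Eif2ak4, which respond to unfolded protein and to lack of amino acids, gave 1.03 (adjusted p = 1.99e-06) and -0.67 (adjusted p = 0.00573) in RT101. In bFGF-JB6 they gave 0.37 (adjusted p = 0.00477) and -0.15 (adjusted p = 0.499). Over the mean of its probe sets Eif2ak3 gave 0.38 (adjusted p = 0.0196) in RT101 and 0.21 (adjusted p = 0.156) in bFGF-JB6. The helicase gene Eif4a1 gave -0.22 (adjusted p = 0.525) in RT101 and -0.09 (adjusted p = 0.789) in bFGF-JB6.

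Cell division genes moved with the bFGF-JB6 colonies. All 7 measured fell there, with a median of -0.96, led by Plk1 (-1.39), Bub1 (-1.32) and Ccna2 (-1.19). In RT101 colonies 2 rose and 2 fell, with a median of -0.03. Over the mean of its probe sets Bub1 gave -0.72 (adjusted p = 2.41e-05) in bFGF-JB6. In RT101 that mean gave -0.11 (adjusted p = 0.417), and the fall of Bub1 did not pass. Of 8 macrophage markers 3 rose in bFGF-JB6 colonies, Cd68 by 1.86, and the list mean per array was 5.14 to 5.32 there against 4.74 to 4.80 in bFGF-JB6 monolayers. The defining leukocyte gene Ptprc stayed at 2.34 to 2.53 in all groups, near the bottom of the signal range. The part of these genes in the changes of the synthetases and initiation factors was not tested.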

How the data were processed

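Total RNA from 11 samples was measured on Affymetrix arrays after biotin labelling, each sample on its own array. The authors deposited RMA values on the log2 scale for every probe set. The RMA step is named, without a version, per the submitters' processing notes. It removes background, gives all arrays the same distribution and combines the probes of a set, so a shift of all genes at once cannot be seen. Precision is set by how few arrays there are, since array signals carry no counts.

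Of 22690 probe sets, 64 were controls and were left out, and 20380 named a single gene in the platform annotation. Each of 12393 genes was read by its brightest such probe set. The values were used without further scaling or filter. The limma package (version 3.58.1, R 4.3.3) fitted all genes on 11 arrays in 4 groups, which left 7 residual degrees of freedom, with 5 contrasts and Benjamini-Hochberg adjustment over all genes, and a gene was called at an adjusted p under 0.05. The model was tested on simulated data. Figures were drawn with matplotlib 3.10.9.

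The members and lists were chosen with earlier results of these data known. Named array by array were the 6 genes of each class with the largest called difference of colony changes, with Eif4e and Eif6; folds were given for the 5 with the largest called change per class and colony comparison and the 3 per class and direction between the lines; Qars, Kars, Hars, Eif5 and Eif4g3 were shown array by array after their values were seen. The main fit used no pairing of samples. Deviations from the group mean of arrays with the same number in the titles correlated at -0.25 to 0.08. With 2 or 3 arrays in a group such correlations cannot show whether samples were paired. For the RT101 monolayers the letters in the descriptions disagree with those numbers, and by letter the RT101 arrays correlated at 0.15 and -0.13. Alternatives covered the replicate block, probe set choice, a signal filter, scaling, the variance model, the arrays fitted and leaving out each array.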

Additional observations from a re-analysis of the deposited data

Results flagged for a closer look

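The change in colonies differed between the lines, RT101 minus bFGF-JB6 on the log2 scale, by the limma test of the difference at an adjusted p under 0.05, for these genes. Among the synthetases the difference was -1.45 for Eprs, -1.40 for Nars, -1.30 for Gars, -1.26 for Lars, -1.25 for Sars, -1.21 for Cars and -1.09 for Wars. It was -0.96 for Tars, -0.95 for Iars, -0.89 for Aars, -0.89 for Yars, -0.85 for Farsb, -0.68 for Vars and -0.66 for Rars, and 0.73 for Qars. Among the initiation factors it was -1.08 for Eif3c, -0.73 for Eif1a, -0.49 for Eif2s2, -0.49 for Eif3d and -0.47 for Eif3a, and 0.92 for Eif2d and 0.37 for Eif3l. In the amino acid response it was -4.00 for Chac1, -3.55 for Trib3, -2.14 for Slc7a5, -1.97 for Asns, -1.90 for Ddit3 and -1.88 for Atf4. When its probe sets were averaged, Atf4 had -1.24 (adjusted p = 2.56e-06). Of the genes that control initiation, Ppp1r15a had -3.17, Eif4ebp1 -1.28, Eif2ak2 1.65 and Eif2ak3 0.66, which was 0.18 (adjusted p = 0.458) when its probe sets were averaged. The complex scaffold gene Eef1e1 had -0.73 and the release factor gene Etf1 -0.85. The cell division genes Plk1, Bub1 and Ccna2 had 1.72, 0.99 and 0.68. When probe sets were averaged, Bub1 had 0.6 (adjusted p = 0.00235) and Ccna2 0.85 (adjusted p = 0.000106). The groups hold 2 or 3 arrays, so no array was tested as an outlier of its group.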

How the results depend on the processing

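Of the genes called, 21 of 30 in RT101 colonies, 6 of 20 in bFGF-JB6 colonies, 19 of 22 for the difference, 28 of 37 between monolayers and 21 of 29 between colonies were called under every alternative. Synthetase counts with 1 array left out ran from 15 to 17 in RT101 colonies, 6 to 8 in bFGF-JB6 colonies, 15 to 16 for the difference, 14 to 16 between monolayers and 9 to 12 between colonies. Those of the initiation factors ran from 8 to 14, 6 to 10, 6 to 8, 16 to 23 and 16 to 20. In bFGF-JB6 colonies the synthetases called fell from 8 to 5 without the 2 arrays of raised 3' signal. The initiation factors called fell from 12 to 5 when only the groups compared were fitted. They fell to 7 with the replicate block by title numbers, and whether these numbers pair the samples is not known. The cause of these drops was not tested. No other count moved by more than 1.5 times under the replicate block. Averaging all probe sets of a gene reversed Eif1ax in bFGF-JB6 colonies (0.13) and RT101 colonies (0.32), Eif3c in bFGF-JB6 colonies (-0.20), and between colonies Eif5 (-0.33) and Etf1 (0.19), since dimmer probe sets then enter. Median centring shifted the median of all genes to -0.10 in RT101 colonies and -0.12 for the difference, and the share of rises among all calls from 52.4% to 40.1% and from 54.1% to 43.5%. No detection calls are given, so weak signals have no lower bound.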
